A study of Homo sapiens with 18 samples.

Results

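Of 55382 regions carrying H3K27ac in HEK293T cells, 1612 (2.91%) lay deep inside long genes. HEK293T is a human cell line derived from embryonic kidney that carries the SV40 large T antigen, and H3K27ac is the acetylation of histone H3 at lysine 27. The regions were the merged H3K27ac peaks of 6 ChIP-seq libraries, and a region was kept if its summit lay within the body of a protein-coding gene, more than 100 kb from every protein-coding transcription start site (TSS) and more than 1 kb from every TSS of a long non-coding RNA gene. The rule used position alone and no measured difference between treatments. The nearest region inside the limit was in BTRC, 100.06 kb from a TSS, and the nearest outside it was in GNG7, 99.989 kb from one.

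The cells were untreated (CTRL) or had been given the histone deacetylase inhibitor valproic acid (VPA) at 1 mM for 1 day, and all were of the same line. Each treatment had 3 replicates with H3K27ac ChIP, 3 with ChIP for the DNA-binding protein CTCF and 3 inputs. The 12 ChIP peak lists were analysed. The labels do not say whether the replicates were separate cultures, so p-values measure only the spread between these libraries. Replicate 1 stood apart from replicates 2 and 3 in both treatments, as its deviations from the group means correlated at −0.73 to −0.69 with those of other replicate numbers of the other treatment. In the H3K27ac libraries, promoter regions were present in 6 of 6 libraries at the HEK293T markers PAX2, LHX1, LIN28B, VIM and CDH2, and in 0 at PTPRC, CD3E, ALB and MYH7, which mark blood, liver and heart muscle.

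The enzymes that write H3K27ac are histone acetyltransferases such as p300 and CBP, and the histone deacetylases blocked by VPA remove it. The mark sits at the promoters and enhancers that a cell type uses. Enhancers often lie in introns, and very long genes, many of which encode proteins of neurons, of cell adhesion and of the extracellular matrix, can hold enhancers of themselves or of neighbouring genes. Repeated elements that carry a promoter of their own, such as the LINE-1 retrotransposon, also lie in such introns.

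Of the 1612 regions, 1577 had their summit in an intron and 35 in an exon. They fell into 469 host genes, of 1327 autosomal protein-coding genes with any sequence that the rule allowed. This sequence came to 220.099 Mb, which gives 7.32 regions per Mb. Chromosomes 3, 6 and 10 held the most, with 181, 180 and 165 regions, and chromosomes 19 and 22 held 6 each. The median distance to the nearest protein-coding TSS was 160.754 kb. Regions were clustered in few genes: 28 hosts with at least 10 regions held 524 of them (32.5%), 211 hosts held 1 each, and 837 regions (51.9%) lay within 10 kb of another. The median region was 720 bp wide, compared with 946 bp over all H3K27ac regions.

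The sequences at a few summits are printed first, from regions described later. All windows are from hg38, read on the + strand, and 151 bp long. The windows at H3K27ac summits were chosen to show the strongest region without a repeated sequence (SH3PXD2A), a region higher in VPA (RNLS), a region lower in VPA (FLT1), a region found only in VPA (PCDH9), a region found only in CTRL (CAMK4) and the widest region (BBS9). Capitals mark a match on either strand. In RNLS it is to AGATAA, the letters of GATA factors. In FLT1 it is to TTGGCA, an NFI half-site. In PCDH9 and BBS9 the AP-1 letters TGANTCA are marked. In CAMK4 and BBS9 the E-box CAGCTG is marked. None of the motifs searched was found in the SH3PXD2A window. A match describes letters and not a bound site.
SH3PXD2A, chr10:103661340-103661490: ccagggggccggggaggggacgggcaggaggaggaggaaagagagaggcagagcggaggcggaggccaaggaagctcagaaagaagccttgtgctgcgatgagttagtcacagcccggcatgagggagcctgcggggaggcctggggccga
RNLS, chr10:88347194-88347344: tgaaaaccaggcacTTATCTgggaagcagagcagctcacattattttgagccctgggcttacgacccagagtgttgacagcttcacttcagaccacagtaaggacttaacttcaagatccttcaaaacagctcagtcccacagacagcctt
FLT1, chr13:28336531-28336681: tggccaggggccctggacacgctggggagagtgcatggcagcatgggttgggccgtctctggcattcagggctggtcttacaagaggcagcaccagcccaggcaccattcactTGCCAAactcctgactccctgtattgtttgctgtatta
PCDH9, chr13:66660025-66660175: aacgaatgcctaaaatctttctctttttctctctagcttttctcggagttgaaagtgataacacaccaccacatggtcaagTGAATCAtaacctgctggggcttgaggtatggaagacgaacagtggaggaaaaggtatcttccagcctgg
CAMK4, chr5:111386733-111386883: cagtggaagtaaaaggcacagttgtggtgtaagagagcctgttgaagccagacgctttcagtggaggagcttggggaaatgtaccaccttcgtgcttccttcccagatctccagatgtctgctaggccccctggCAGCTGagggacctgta
BBS9, chr7:33722416-33722566: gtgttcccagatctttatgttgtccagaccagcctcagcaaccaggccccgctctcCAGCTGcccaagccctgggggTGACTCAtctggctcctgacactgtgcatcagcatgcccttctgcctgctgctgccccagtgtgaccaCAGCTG

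A further pair of windows is centred on CTCF summits inside regions found only in VPA, and the capitals mark the core of the CTCF motif.
SLIT1, chr10:97037442-97037592: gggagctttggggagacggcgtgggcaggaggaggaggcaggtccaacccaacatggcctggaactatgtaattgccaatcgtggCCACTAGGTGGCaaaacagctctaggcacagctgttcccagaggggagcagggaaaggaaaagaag
WWOX, chr16:78770660-78770810: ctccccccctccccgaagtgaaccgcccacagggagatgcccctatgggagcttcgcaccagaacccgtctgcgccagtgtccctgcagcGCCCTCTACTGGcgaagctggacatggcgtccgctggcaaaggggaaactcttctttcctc

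It was asked first whether more regions deep inside genes were acetylated after VPA. CTRL libraries held 559, 704 and 746 of them, and VPA libraries held 789, 1093 and 936. Every VPA library thus held more than every CTRL library, with means of 669.7 ± 98.1 and 939.3 ± 152 (SD, n = 3), a ratio of 1.40. The exact permutation test gave p = 0.1, two-sided, which is the smallest that 3 libraries against 3 allow. It was 0.2 after Benjamini-Hochberg adjustment over the 8 main tests on these regions. Exact tests on other classes and under alternative settings were not adjusted. Within replicate numbers VPA was higher by 230, 389 and 190 regions (exact sign-flip p = 0.25, again the smallest possible).

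The direction of this difference depended on the length of the peak lists. The H3K27ac lists held 26299 to 29799 peaks in CTRL and 38441 to 40992 in VPA. Each list was then limited to its 26299 peaks with the highest −log10 q-value, the length of the shortest list. These peaks were merged and selected anew by the same rule, which gave 1027 regions deep inside genes among 36751. Of the 1027, CTRL libraries held 559, 581 and 604 and VPA libraries 460, 553 and 514. The order was then reversed, with means of 581.3 ± 22.5 in CTRL and 509 ± 46.7 in VPA (SD, n = 3, exact permutation p = 0.1). The share of all regions of a library that lay deep inside genes was 2.57% ± 0.172 in CTRL and 2.48% ± 0.227 in VPA with full lists (exact permutation p = 0.7). With lists of equal length it was 2.41% in CTRL and 2.03% in VPA, without overlap between the treatments (exact permutation p = 0.1).

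**Figure D1:**
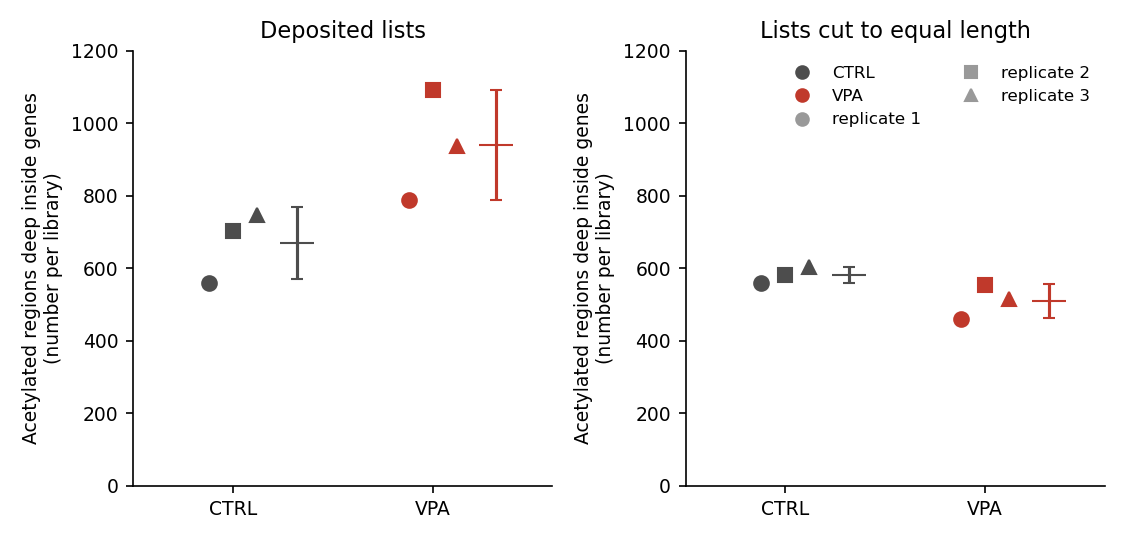
Number of acetylated regions deep inside genes in each library (vertical axis), for the full peak lists (left) and for lists limited to their top 26299 peaks (right). Points are libraries, with a symbol for each replicate, and bars are means with SD. With full lists all VPA libraries lie above all CTRL libraries, from 789 against 746 upwards, and with equal lists they lie below, at 460 to 553 against 559 to 604.

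The change in number was then compared with that of other H3K27ac regions, with the library labels exchanged together for both. The log2 ratio of VPA over CTRL was 0.49 for regions deep inside genes and 0.89 for regions inside genes at 5 to 100 kb from a TSS. The difference was −0.40, with −0.44, −0.29 and −0.49 within replicates 1, 2 and 3 (exact permutation p = 0.1, adjusted 0.2, sign-flip p = 0.25). The log2 ratio was 0.71 for regions in gene deserts, which are outside genes and equally far from every TSS (difference −0.22, with −0.21, −0.20 and −0.25 within replicates, exact permutation p = 0.1). Against all other H3K27ac regions the difference was −0.05, which was smaller than the spread between replicates (p = 0.7, exact permutation test). The ratio of means was 1.05 for promoter regions. With lists of equal length the difference from all other regions was −0.25 (p = 0.1), that from regions inside genes was −0.20 (p = 0.3) and that from gene deserts was −0.21 (p = 0.1), by the same exact permutation test.

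**Figure D2:**
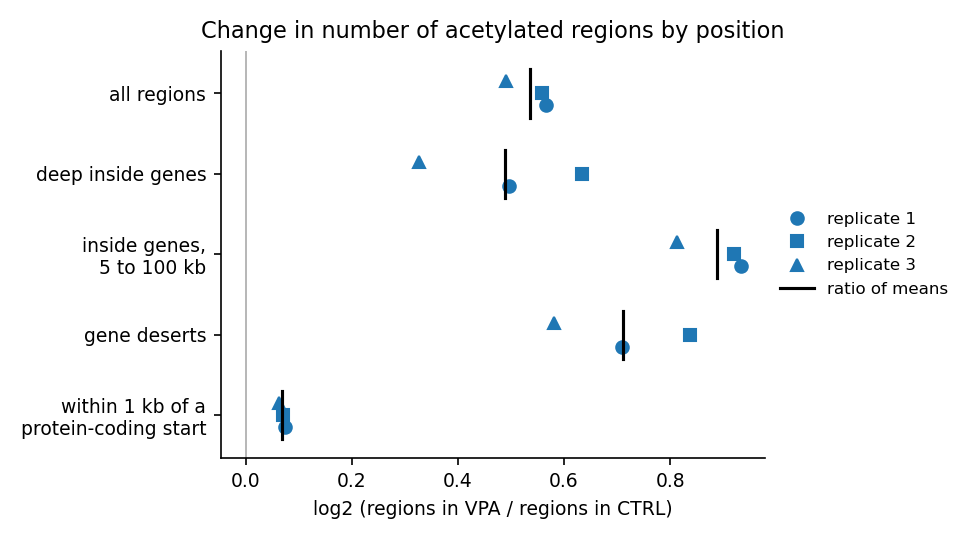
log2 ratio of the number of H3K27ac regions in VPA over CTRL (horizontal axis) by class of position. Points are the ratios within replicates 1, 2 and 3 and the vertical ticks are ratios of the group means. Regions deep inside genes, at 0.49, lie below gene deserts at 0.71 and below regions inside genes at 5 to 100 kb at 0.89.

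Regions deep inside genes were weak ones in every list. Each peak was ranked by its −log10 q-value among all peaks of its library, as a percentile from 0 to 100. The median percentile of the regions was 28.1, 29.4 and 30.3 in CTRL and 36.8, 36.0 and 38.9 in VPA, so the groups did not overlap (exact permutation p = 0.1, adjusted 0.2). The means of these medians were 29.3 in CTRL and 37.2 in VPA. They were 26.3 and 31.7 inside genes at 5 to 100 kb, and 33.0 and 38.6 in gene deserts. In both of these classes VPA was also higher, without overlap (exact permutation p = 0.1 each). For the regions deep inside genes, the median number of fragments stacked at the summit (the summit pileup) was 25, 33 and 31 in CTRL and 24, 27 and 29 in VPA. Peaks were called from 11 fragments upwards. The background coverage of the libraries, which stands in for depth since peak lists hold no read totals, was 3.51 to 3.95 fragments. The median peak was 657.5 ± 46.7 bp wide in CTRL and 685.5 ± 88.5 bp in VPA (SD, n = 3, exact permutation p = 0.8). With lists of equal length the median percentile differed by 0.842 instead of 7.95, and peaks had median widths of 737.7 bp (CTRL) against 1013.5 bp (VPA), with an exact permutation p of 0.1.

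The presence of each region was counted next, over libraries. A peak was found in all 6 libraries for 336 regions (20.8%, where all H3K27ac regions gave 33.2%). In 1 library only it was found for 584 (36.2%, all regions 30.4%). Regions inside genes at 5 to 100 kb gave 14.5% and 42.9%, and gene deserts gave 21.0% and 35.1%. In 53 regions deep inside genes a peak was found in 3 of 3 VPA and 0 of 3 CTRL libraries, here called only in VPA. This was 3.29% (95% Wilson interval 2.52 to 4.28), compared with 4.12% of all regions. The reverse, only in CTRL, held for 9 regions, 0.558% (0.294 to 1.06), compared with 0.139% of all regions. More broadly, 620 regions had a peak in at least 1 VPA and no CTRL library (38.5%, all regions 39.4%), and 196 in at least 1 CTRL and no VPA library (12.2%, all regions 5.2%). In total 284 regions (17.6%) were in more CTRL than VPA libraries, where all regions gave 7.64%. The intervals cover counting error only and treat regions as independent.

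These counts depended on single libraries, since a region must be absent from every list of the other treatment. Regions only in VPA numbered 149 without VPA replicate 1 and 80 without VPA replicate 3. Regions only in CTRL numbered 31, 15 and 15 without CTRL replicates 1, 2 and 3, and 16 and 15 without VPA replicates 1 and 2. Without both replicate 1 libraries there were 174 only in VPA (10.8%, all regions 11.4%) and 39 only in CTRL (2.42%, all regions 0.766%). With lists of equal length there were 15 and 27, of the 1027 regions deep inside genes that those lists gave. The share of all regions was not counted for these lists or for single libraries left out.

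The 6 highest-ranked regions only in VPA lay in 5 genes. EYS, which encodes a matrix protein of photoreceptors, held the first at chr6:64539086-64540692, in intron 26, with summit pileups of 29, 37 and 39 in VPA and no peak in CTRL. PCDH9, a protocadherin of neuronal adhesion, held the next at chr13:66659390-66660433, with 23, 45 and 42. A further EYS region, at chr6:64723121-64724345, had 19, 48 and 37. DOK6, an adaptor of receptor tyrosine kinases, followed with 41, 32 and 38, then NKAIN2, which interacts with the sodium pump, with 19, 33 and 28, and MACROD2, an ADP-ribose hydrolase, with 21, 34 and 29. The first EYS region ranked at a mean percentile of 52.5, and the median over the 53 regions was 31.8, so most were among the weaker peaks of their lists.

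A region only in VPA in P3H2, a prolyl 3-hydroxylase of collagens, was examined because the study discusses this gene on the same samples. It lay at chr3:189961023-189962539, in intron 14 of 14, with summit pileups of 19, 29 and 22 in VPA. Its fold enrichment, the summit over its local background, was 4.28, 4.96 and 4.93. A CTCF region at the same place was found in all 6 CTCF libraries.

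The 4 highest-ranked regions only in CTRL lay in 4 genes. ADAM12, a metalloprotease of the cell surface, held the first at chr10:126242259-126243677, with summit pileups of 45, 50 and 42. RSU1, a partner of integrin-linked adhesion proteins, had 24, 42 and 31. SLC25A12, the aspartate/glutamate carrier of mitochondria, had 35, 30 and 30. CAMK4, a calcium/calmodulin-dependent kinase, had 19, 28 and 31 at chr5:111386619-111387086. All of these values were above 11 fragments, the lowest summit called in any library. A count above 11 can still lie near the threshold where the local background is high. At an LRMDA region, 26 fragments over a background of 12.4 ranked at percentile 1.01 in CTRL replicate 2. The mean percentile in CTRL was 41.0 for the ADAM12 region and 20.9 for the CAMK4 region. None of the 4 regions had a peak in VPA.

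The strength of acetylation was compared at the 336 regions present in all 6 libraries. The log2 fold enrichment of all 18407 such H3K27ac regions was fitted with limma, and p-values were adjusted over all of them by the Benjamini-Hochberg method. Without a replicate block 0 regions passed an adjusted p of 0.05 (background 0%), while 11 of the 336 (3.27%) had an unadjusted p under that level, as had 296 of all 18407 (1.61%). The median log2 fold change was 0.04, with 181 positive, and was −0.14 over all regions tested. On summit pileups the median was −0.07, with 147 positive, so the sign of the median depended on the unit.

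The replicate number was then used as a block, a pairing that the labels do not state. Same-numbered libraries correlated at 0.8645, 0.5851 and 0.5905, but CTRL 2 with VPA 3 (0.6062) and CTRL 3 with VPA 2 (0.5536) did so similarly. The pairing of replicates 2 and 3 by number is thus uncertain. With the block, limma called 20 regions higher (background 4.64%) and 22 lower (background 11.6%) in VPA. Background is the share of all 18407 regions tested that was called the same way. When each library was also centred on its median, 29 of the 336 were higher (background 6.46%) and 15 lower (background 8.59%). On summit pileups over background coverage, 14 of the 336 were higher (background 4.06%) and 24 lower (background 13.4%) without the block. With the block, 50 of the 336 were higher (background 12%) and 87 lower (background 53.5%). All 42 regions called with the block kept their sign on summit pileups. Centring moves every log2 fold change by the same amount, too little to turn any of these 42, so their sign after it carries no information. Of the 42, 9 of the 20 higher and 13 of the 22 lower were also called on pileups without the block. The calls named below are those with the block, and without it their adjusted p was 1.

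LRMDA, a leucine-rich repeat protein of melanocyte differentiation, held the region with the largest increase in fold enrichment, at chr10:76102634-76104997 in intron 5. Its summit pileup was 19, 26 and 31 in CTRL and 68, 82 and 69 in VPA, so all VPA libraries were above all CTRL libraries. The log2 fold change was 1.41 ± 0.24 (SE, limma with block, adjusted p = 0.002483). CNTNAP2, a neurexin-like adhesion protein of neurons, had pileups of 60, 65 and 63 in CTRL and 154, 161 and 127 in VPA at chr7:146344386-146347289 in intron 1. Its log2 fold change was 1.31 ± 0.22 (limma with block, adjusted p = 0.002483). The region in RNLS, the flavoprotein renalase, had 20, 43 and 32 in CTRL and 37, 88 and 76 in VPA, so 1 VPA library lay within the CTRL range. The RNLS region, whose window with a GATA match is printed above, had a log2 fold change of 1.22 ± 0.24 (limma with block, adjusted p = 0.004287).

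SDCCAG8, a protein of the centrosome, had a summit pileup of 75, 81 and 76 in CTRL and 206, 135 and 133 in VPA, with no overlap, and a log2 fold change of 1.19 (limma with block, adjusted p = 0.0045). ARHGAP15, which inactivates the GTPase Rac, had 13, 29 and 23 in CTRL and 25, 40 and 37 in VPA, with overlap, and a log2 fold change of 1.10 (limma with block, adjusted p = 0.009103). The other regions called higher included those in SEMA3C and NTN4, which guide axons, in EFNA5, PCDH9, EYS, KLHL1, DYNC1I1 and NPAS3, and in EGLN3, CDKAL1, CCSER1, ARSB, CERS6 and SOX6. The log2 fold changes of these regions ranged from 0.74 in KLHL1 to 1.07 in SEMA3C. EGLN3 and LRMDA each also held a region called lower, with log2 fold changes of −0.81 and −0.92.

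FLT1, a receptor of vascular endothelial growth factor, held the region with the largest decrease in fold enrichment, while on summit pileups an ADAM12 region had a larger one (−1.59 against −1.25 on the log2 scale). At chr13:28335007-28339226, in intron 17, its summit pileup was 103, 131 and 123 in CTRL and 51, 54 and 49 in VPA. The log2 fold change was −1.43 ± 0.25 (SE, limma with block, adjusted p = 0.003034), and the groups did not overlap. PTPN14, a tyrosine phosphatase, had 75, 102 and 186 in CTRL and 32, 58 and 97 in VPA at chr1:214437998-214441557. The PTPN14 groups overlapped, although VPA was lower within each replicate number, and the log2 fold change was −1.28 ± 0.20 (limma with block, adjusted p = 0.001896). SOX6, a transcription factor of cartilage and neurons, had 533, 442 and 389 in CTRL and 260, 201 and 210 in VPA at chr11:16603276-16608493, with a log2 fold change of −1.21 (limma with block, adjusted p = 0.002151). The summit of this SOX6 region lay 473 bp from the start of a transcript without an annotated coding sequence. A different SOX6 region, at chr11:16147941-16149107, was called higher, with a log2 fold change of 0.76 (limma with block, adjusted p = 0.0333).

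ADAM12 held 4 of the 22 regions called lower. At chr10:126232891-126236627 the summit pileup was 85, 72 and 53 in CTRL and 25, 25 and 21 in VPA, a log2 fold change of −1.28 (limma with block, adjusted p = 0.004216). At chr10:126247206-126250718 it was 227, 189 and 187 in CTRL and 151, 104 and 126 in VPA, a log2 fold change of −1.27 (limma with block, adjusted p = 0.002582). The other ADAM12 regions called lower had log2 fold changes of −1.02 and −1.11. All 15 ADAM12 regions lay in intron 3, over 88.1 kb. All 6 that were present in every library had a negative log2 fold change, with a median of −1.07, and a negative one on pileups too. ADAM12 also held the top region only in CTRL, and 7 of its 15 regions were in more CTRL than VPA libraries.

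**Figure D3:**
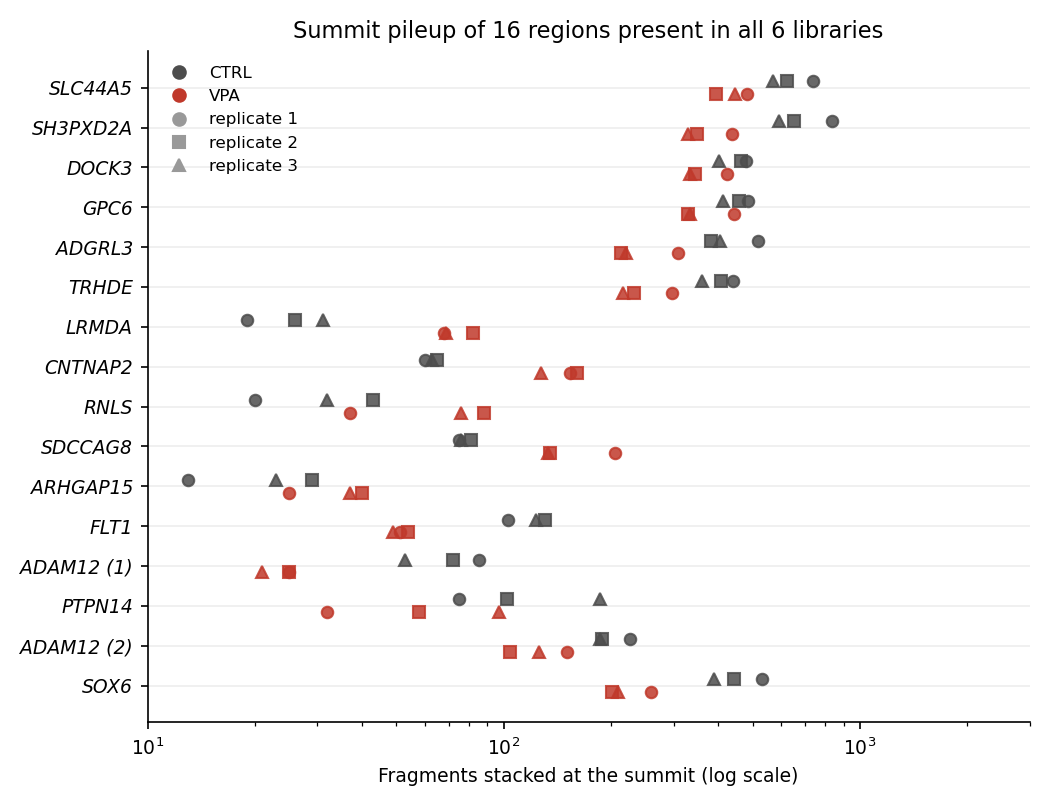
Summit pileup in fragments (horizontal log axis) of named regions present in all 6 libraries (rows, by host gene). Points are libraries, colored by treatment, with a symbol for each replicate. VPA points lie to the right for LRMDA (68 to 82 against 19 to 31) and CNTNAP2, and to the left for FLT1 (49 to 54 against 103 to 131) and for both ADAM12 regions shown.

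The strongest regions deep inside genes were then described by rank and by sequence. SLC44A5, a choline transporter-like protein, held the region with the highest mean percentile, 94.2, at chr1:75375132-75377059. Its summit pileup was 737, 626 and 570 in CTRL and 481, 395 and 446 in VPA, with a log2 fold change of −0.65 (limma with block, adjusted p = 0.04923). SH3PXD2A, a scaffold protein of invadopodia, followed at a percentile of 92.9 at chr10:103659622-103662597. It had 838, 654 and 594 in CTRL and 438, 348 and 330 in VPA, with a log2 fold change of −0.61 (limma with block, adjusted p = 0.0412). All VPA libraries were below all CTRL libraries at both regions. The SH3PXD2A summit lay 289 bp from the annotated start of another transcript of a protein-coding gene, of a kind without a coding sequence, which the rule did not count.

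DOCK3, an activator of Rac in neurons, ranked at 89.5 at chr3:50977907-50979875, with 478, 465 and 403 fragments in CTRL and 423, 345 and 334 in VPA. GPC6, a cell-surface glypican, ranked at 85.7 at chr13:93495356-93498292, with 485, 459 and 413 in CTRL and 443, 330 and 333 in VPA. The groups overlapped at DOCK3 and GPC6, although VPA was lower within each replicate number. Neither passed on fold enrichment with the block, but both were called lower on summit pileups with it (limma, adjusted p = 0.0002361 and 0.0001649). ADGRL3, a latrophilin of synapses, ranked at 85.2 at chr4:61371980-61373692, with 519, 382 and 406 in CTRL and 308, 213 and 221 in VPA, and a log2 fold change of −0.70 (limma with block, adjusted p = 0.03046). TRHDE, a peptidase that degrades thyrotropin-releasing hormone, ranked at 83.7 at chr12:72639268-72641086, with 441, 407 and 360 in CTRL and 297, 232 and 216 in VPA. The groups did not overlap at TRHDE, although its log2 fold change of −0.28 did not pass (limma with block, adjusted p = 0.3501). On summit pileups the TRHDE value was −0.75 and passed without the block too (limma, adjusted p = 0.02807).

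These strongest regions shared a sequence, with SH3PXD2A as the exception. In windows of 401 bp around the summits, each pair among SLC44A5, DOCK3, GPC6, ADGRL3 and TRHDE had 23 to 115 stretches of 25 bases in common, on either strand, whereas SH3PXD2A had 0 in common with any of them. From general knowledge, the shared stretches are recognisable as the start of LINE-1, the retrotransposon whose 5′ end holds an internal promoter, although no repeat annotation was used here. The comparison was made after the sequences had been seen.

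Over all 1612 regions, 63 (3.91%), in 57 genes, had at least 20 such stretches in common with the 5 windows. Among all H3K27ac regions the share was 1.35%, and it was 5.49% in gene deserts, 0.969% inside genes at 5 to 100 kb and 0.127% at promoters. The 5 windows had been taken from the strongest regions, so ranks were described without them. The remaining 58 had a median percentile of 41.8, compared with 24.7 for regions that did not share the sequence, and made up 1 of the top 10 and 12 of the top 100 regions. With the 5 included, 22, 42 and 41 were present in CTRL libraries and 24, 53 and 44 in VPA libraries, so the ranges overlapped. A peak in all 6 libraries was found for 16 of the 58 (27.6%, other regions 20.3%), or for 21 of the 63. Of the 63, 0 were only in VPA or only in CTRL.

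Of these 21, limma with the replicate block called 0 higher (background 4.64%) and 4 lower (background 11.6%) in VPA. The 4 were in SLC44A5, ADGRL3, NR3C2 and TRHDE, the last at a second site at chr12:72519518-72520894. Those in SLC44A5 and ADGRL3 were among the 5 windows that defined the set. The median log2 fold change of the 21 was −0.28, with 5 positive, while the 315 other regions had a median of 0.05, with 176 positive, 20 called higher and 18 called lower. Over all regions tested the median was −0.14. The 21 include the 5 windows taken for their rank, and the part of rank in this difference was not tested. On summit pileups with the block, 1 of the 21 was called higher and 16 lower, and of the 315 others 49 were called higher and 71 lower, where all regions gave 12% and 53.5%. Copies in the genome were counted by a different measure. A copy was a run of at least 20 matches, with gaps of at most 1000 bp, to the 79 stretches found in at least 3 of the 5 windows. The autosomes held 2431 such copies, 717 of which (29.5%) overlapped an H3K27ac region. Deep inside genes 68 of 271 copies did (25.1%), a count not comparable with the 63 regions above. Since near-identical copies can share reads, and the treatment of reads that fit several places is not given in the sources used here, the values of these regions are uncertain.

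**Figure D4:**
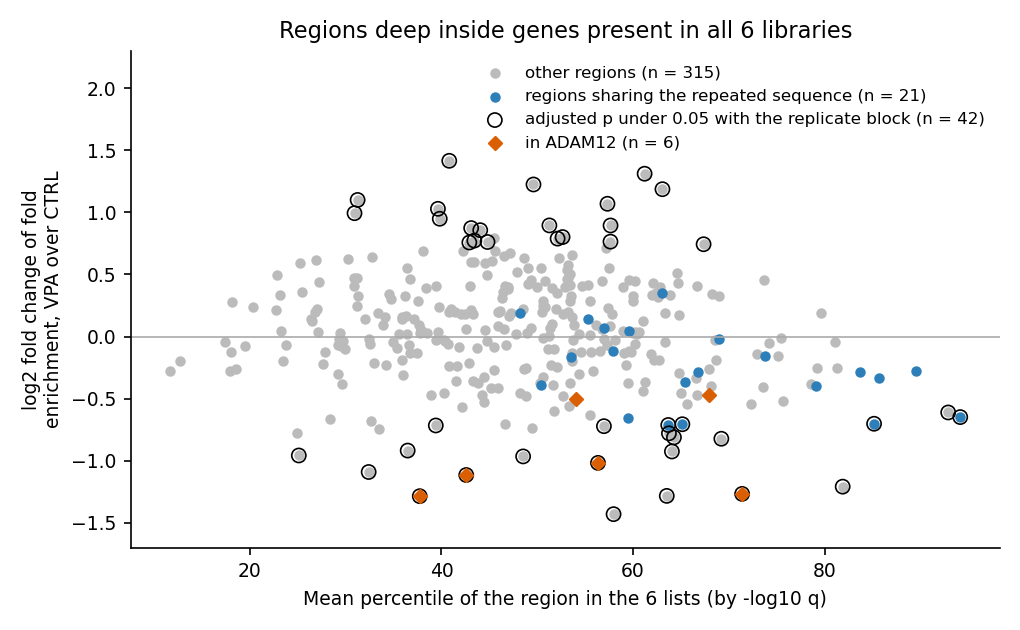
log2 fold change of the fold enrichment, VPA over CTRL (vertical axis), against the mean percentile in the 6 lists (horizontal axis) for the 336 regions deep inside genes present in all 6 libraries. Colors separate the 21 regions that share the repeated sequence from the 315 others, diamonds are the 6 regions in ADAM12, and rings mark the 42 regions called with the replicate block. The repeated-sequence regions, 5 of which were taken for their rank, lie mostly below 0, and the ADAM12 regions lie between −1.28 and −0.47.

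The widest regions were described without a test. BBS9, a subunit of the BBSome of the primary cilium, held the widest at chr7:33717027-33737116, 20090 bp long, with summit pileups of 365, 304 and 248 in CTRL and 319, 230 and 204 in VPA. Its summit window, printed above, holds an AP-1 match and 2 E-box matches. The next in width were CAMTA1, a calmodulin-binding transcription activator (6867 bp), a further BBS9 region (6754 bp), LRMDA (6206 bp) and ADAM12 (5745 bp). The ADAM12 region had 141, 159 and 145 fragments in CTRL and 82, 79 and 88 in VPA, and the groups did not overlap, whereas those of the widest BBS9 region did.

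By host gene, the regions were concentrated in genes of several functions. The counts per host are from the full lists, which were longer in VPA, and were not made with lists of equal length. Of the 469 hosts, 306 had a higher mean number in VPA and 79 a lower one. PCDH9 held the most, 49 regions, with 11, 18 and 21 in CTRL and 23, 37 and 31 in VPA, so all VPA libraries held more. LRMDA held 41, with 19, 18 and 20 in CTRL and 26, 31 and 23 in VPA. GMDS, which makes GDP-fucose, held 40, with 24, 28 and 29 in CTRL and 27, 25 and 23 in VPA, so the treatments overlapped. GMDS was also the densest of the leading hosts, with 109 regions per Mb of allowed sequence. Of its regions, 32 lay in intron 7, and the neighbouring gene on the lower side was FOXC1, a transcription factor of mesoderm and eye development.

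RAD51B, a homologous recombination protein, and SLC25A21, a mitochondrial carrier, held 29 regions each. RAD51B had 12, 17 and 16 in CTRL and 13, 21 and 19 in VPA, and SLC25A21 had 9, 13 and 15 in CTRL and 7, 19 and 18 in VPA. Both overlapped between treatments. WWOX, an oxidoreductase gene at a common fragile site, held 24, with 14, 15 and 16 in CTRL and 13, 15 and 14 in VPA. The genes next to these hosts were ZFYVE26 and ZFP36L1 for RAD51B, NKX2-8 and MIPOL1 for SLC25A21, and CLEC3A and MAF for WWOX.

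PCDH7, a further protocadherin, held 21 regions, with 5, 9 and 6 in CTRL and 12, 20 and 15 in VPA, without overlap. LRP1B, a large lipoprotein receptor, held 19, with 4, 6 and 9 in CTRL and 8, 15 and 12 in VPA, with overlap. BBS9 held 18, and NKAIN2 held 17, with 4, 7 and 6 in CTRL and 11, 9 and 9 in VPA. EYS held 12, with 1 in each CTRL library and 5, 11 and 5 in VPA. EYS and PCDH7 held the most regions only in VPA, 3 each, followed by LRMDA, RAD51B and RASGEF1B with 2 each. ADAM12 went the other way, with 11, 10 and 12 regions in CTRL and 9, 6 and 7 in VPA.

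**Figure D5:**
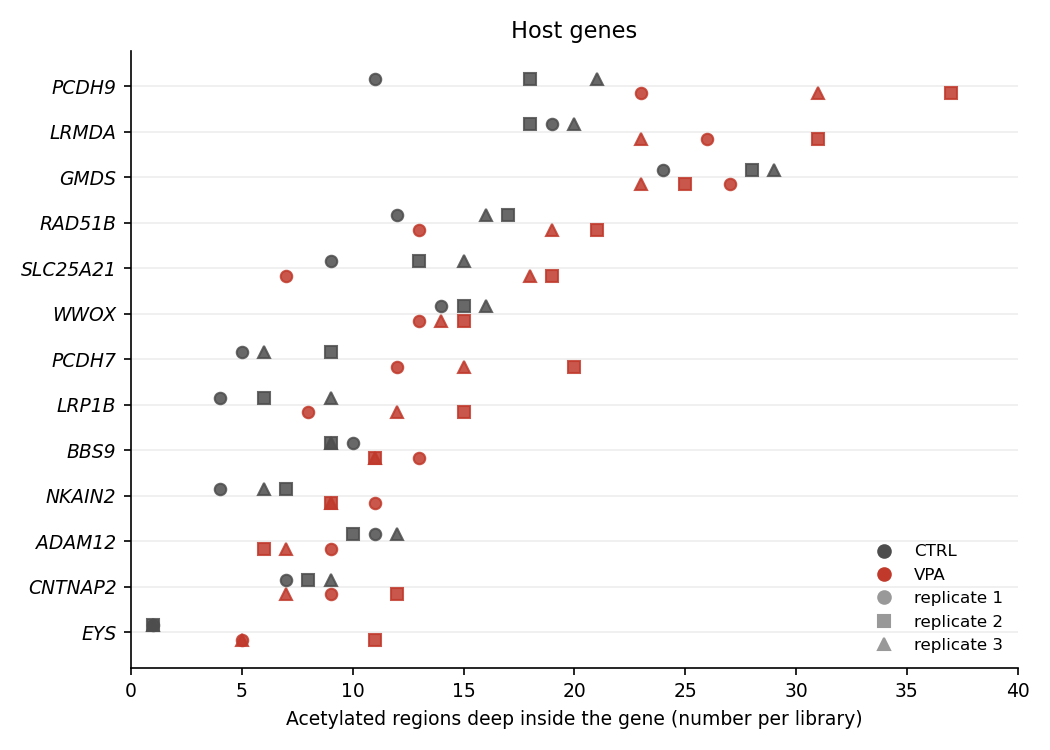
Number of acetylated regions deep inside each host gene in each library (horizontal axis), from the full peak lists. Genes are in rows, and points are libraries, colored by treatment, with a symbol for each replicate. VPA points lie to the right of CTRL points for PCDH9 (23 to 37 against 11 to 21), PCDH7 and EYS, overlap for GMDS and WWOX, and lie to the left for ADAM12 (6 to 9 against 10 to 12).

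Within hosts the strength of shared regions also differed. In PCDH9, 8 of 9 regions tested had a positive log2 fold change (median 0.34), and in CNTNAP2 5 of 6 (median 0.43), where the median over all regions tested was −0.14. On summit pileups 7 of 9 and 5 of 6 were positive. In GMDS 4 of 17 were positive (median −0.05), or 11 after centring, or 3 on summit pileups (median −0.33). The local background under the peaks, relative to the genome-wide level, had a median of 2.69 in CTRL and 1.56 in VPA over the PCDH9 regions, and of 1.57 and 1.31 over all regions deep inside genes, and its part in the fold enrichment was not tested.

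Some of the longest genes held 0 regions. The longest stretches of allowed sequence without any were in CSMD1 (1753 kb), RBFOX1 (1256 kb), PTPRT (1013 kb), LRRC4C (968 kb) and ERBB4 (954 kb). CSMD1 encodes a complement regulator of the brain, RBFOX1 a splicing factor of neurons and muscle, PTPRT a receptor phosphatase, LRRC4C a synaptic ligand and ERBB4 a neuregulin receptor. Of the 469 hosts, 105 had regions in VPA and in no CTRL library, and 19 the reverse. These counts are from the full lists, which were longer in VPA. Of all H3K27ac regions, 39.4% had a peak in VPA and in no CTRL library, and 5.2% the reverse.

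Lists of host genes by function were compared by count alone. Genes with allowed sequence held at least 1 region in 469 of 1327 cases (35.3%), and the density over these genes was 7.25 regions per Mb when overlapping genes were each counted. Transcription factors and their cofactors were densest, with 14.4 per Mb and a region in 32 of 51 genes. Among them, AUTS2 held 12 regions, MAML3, a coactivator of Notch signaling, 11, and ZFHX3 and NPAS3 9 each. Extracellular matrix and guidance genes had 8.03 per Mb (32 of 59 genes), with ADAM12, EYS, and the axon guidance genes ROBO2 (10 regions) and SLIT3 (9). Phosphodiesterase and kinase genes had 8.83 per Mb (23 of 45), led by the diacylglycerol kinase DGKB with 13.

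Neuronal adhesion and synapse genes had a region in 33 of 62 genes, at 5.35 per Mb, and were led by PCDH9, PCDH7, LRP1B and CNTNAP2. Their regions numbered 52, 79 and 86 in CTRL and 86, 145 and 111 in VPA, so the treatments met at 86. Of the 184 regions, 7 (3.80%) were found only in VPA and 1 (0.543%) only in CTRL, near the shares over all regions deep inside genes. Genes at common fragile sites, a list that shares LRP1B and CNTNAP2, had 5.30 per Mb (19 of 30 genes), and cytoskeleton and GTPase regulators had 6.36 (14 of 31), led by ARHGAP15 with 13. Ion channel and receptor genes were least dense, at 2.96 per Mb (15 of 44), with CACNA2D1, a subunit of calcium channels, at 8 regions. The mean number was 58 in CTRL and 80.7 in VPA for transcription factors, a ratio of 1.39, and the ratio was 1.58 for neuronal adhesion genes and 1.40 over all hosts, as values without a test.

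The regions were compared with CTCF binding, which the rule did not use. In CTRL libraries 14.0% ± 0.534 of the regions overlapped a CTCF region found in at least 2 of 3 CTRL CTCF libraries, and in VPA 14.1% ± 1.00 overlapped such a VPA region (SD, n = 3, exact permutation p = 0.8). Over all H3K27ac regions the values were 36.9% and 32.9%. The difference of 0.160 percentage points was 1.15 with lists of equal length (14.3% and 15.4%, exact permutation p = 0.1) and 1.43 with the same CTCF regions for both treatments (exact permutation p = 0.3). Its sign turned without CTRL replicate 1 (−0.124), VPA replicate 1 (−0.118) or VPA replicate 3 (−0.139). A CTCF region present in all 6 CTCF libraries overlapped 132 regions deep inside genes (8.19%), compared with 13.6% inside genes at 5 to 100 kb, 10.2% in gene deserts and 21.7% of all H3K27ac regions. The CTCF summit lay a median of 238 bp from the H3K27ac summit, within 150 bp in 34 of the 132. The CTCF core was found in 24 of the 132 windows around the CTCF summits. It was searched as a fixed pattern of letters with no mismatch allowed, so sites that differ from it were missed. The share at other CTCF summits was not counted.

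Regions only in VPA overlapped a CTCF region in 15 of 53 cases (28.3%, 95% Wilson interval 18.0 to 41.6), against 16.7% of regions present in all 6 libraries and 30.4% of all H3K27ac regions only in VPA. Of the 9 regions only in CTRL, 0 did, which allows a share of up to 29.9% (Wilson). CTCF was bound in all 6 CTCF libraries at 12 of the 53, in ANAPC1, P3H2, RASGEF1B, CARMIL1, SDK1, NEBL, SLIT1, LDLRAD3, FRY, ABCC4, WWOX and MACROD2. In SLIT1, a ligand of axon guidance, and in WWOX the CTCF core lay within the windows printed above, 275 bp and 242 bp from the H3K27ac summit when measured from the CTCF summit. Among the strongest and widest regions, those in SH3PXD2A, SOX6, BBS9 and CAMTA1 also held CTCF in all 6.

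The sequence at the summits was compared with that nearby. In windows of 300 bp at the 1612 summits the median GC content was 47.5%, against 39% at windows 2 kb away and 52.3% at all H3K27ac summits. The median number of CpG dinucleotides was 4 at the summits and 2 nearby. An E-box was found in 16.5% of summit windows and 10.1% of nearby ones, with 16.1% over all H3K27ac summits. AGATAA was found in 15.4% and 23.1%, where all H3K27ac summits gave 9.84%, and the homeodomain motif TAATTA in 7.75% and 12.5%, and both are rich in A and T. The AP-1 letters were found in 10.5% of summit windows, 9.55% of nearby ones and 7.68% of all summits, and the NFI half-site in 15.9%, 14.7% and 10.6%. These are counts of letters without a test, both strands were searched, and base composition moved with them.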

How the data were processed

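ChIP-seq libraries of HEK293T cells were aligned by the authors to hg38 with Bowtie2, and peaks were called in each library with MACS3 3.0.0a7, according to the submitters' processing notes. The deposited lists hold, for each peak, a fold enrichment (a ratio), a −log10 p-value, a −log10 q-value and a score, all as given by the authors' peak caller. The number of reads is unknown, and the 6 inputs were not analysed here.

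Peaks of the 6 H3K27ac libraries that shared 1 bp were merged, and summits were placed with GENCODE 44. A region's summit was that of its peak with the highest −log10 q-value. Summit pileups were worked out from each peak's −log10 p-value and fold enrichment, and 100% were whole within 0.05. Counts were compared by exact permutation over 20 assignments of the libraries, and log2 fold enrichment at regions in all 6 libraries by limma 3.58.1 (R 4.3.3, Benjamini-Hochberg), tested on simulated data. Python 3.11.15, numpy 2.4.6, pandas 2.3.3, scipy 1.17.1 and matplotlib 3.10.9 were used. Replicate numbers from the labels were treated as pairs in the fit with a replicate block, since deviations of same-numbered libraries from their group means correlated at 0.8645, 0.5851 and 0.5905 over 18407 regions. Replicates 2 and 3 also correlated across numbers (0.6062 and 0.5536), so the pairing is a hint from the data. At most 0.0192% of intervals were identical between any pair of lists.

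Named regions were the 6 highest-ranked in all 6 libraries, the 6 only in VPA, the 4 only in CTRL, the 5 largest and 5 smallest log2 fold changes, the 5 widest and P3H2, and named hosts those with the most regions, the most only in VPA, or the most allowed sequence and none. Other genes were named after their values were seen, and a few items are not reported here. The members, gene lists and motifs were chosen with earlier results of these data known. Alternatives were the threshold and length of the lists, the TSS set, the overlap required, single libraries left out, scaling, unit and replicate block.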

Additional observations from a re-analysis of the deposited data

How the results depend on the processing

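Of the results recomputed under alternative settings, 106 kept their direction and side of the threshold, 13 counts moved, 9 values changed sign and 4 counts of calls rose from 0. The exact tests over libraries cannot give a p under 0.1, so they could not change side. For them only the direction was free to change. With lists of equal length, the difference in number became −72.3 regions, regions only in VPA fell to 15 and regions only in CTRL numbered 27. With the TSS taken as the 5′ end of each gene, these counts were 139 and 22, since more regions qualified. Leaving out both replicate 1 libraries, an alternative chosen after seeing the data, gave counts of 174 and 39 and a CTCF difference of −0.402 percentage points. The CTCF difference was −0.841 when the CTCF summit had to lie inside the region. Leaving out each library in turn gave 66 to 149 regions only in VPA and 12 to 31 only in CTRL, a difference in number of 193 to 345, in share of −0.209 to 0.0149 percentage points, in CTCF overlap of −0.139 to 0.737 percentage points, in median width of −16.2 to 72.2 bp and in median percentile of 7.14 to 8.55. The change against other regions was −0.128 to 0.00523, against regions inside genes −0.497 to −0.301 and against gene deserts −0.230 to −0.211, as log2 ratios, and 0 regions passed the limma test in every case. Of the values that changed sign, the CTCF differences of −0.402 and −0.841 were larger in size than the main one of 0.160. The others were smaller in size than their main values. The cause of the changes was not tested. Calls of limma numbered 42 with the replicate block, 44 with the replicate block and centring, 38 on summit pileups and 137 on summit pileups with the replicate block, which was also chosen after seeing the data. The replicate block changed no other call, since the sign-flip test cannot go below 0.25 with 3 pairs. Summits of 11 fragments were the lowest called, and acetylation below that level was not detectable.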

Other observations

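The rule used the start sites of protein-coding transcripts. Other transcripts of protein-coding genes, which carry no coding sequence in the annotation, started within 1 kb of 36 of the regions (2.23%), 12 of which were present in all 6 libraries. Among these 12 were regions in ATG10, CTNNA3, LRMDA, PDZD2, SH3PXD2A, SOX6 (2 regions), TTC28, VWA8, ZMIZ1 and MEIS2, a homeodomain transcription factor whose summit lay 277 bp from such a start.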
